A study of Mus musculus with 28 samples.

Results

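The genes described here encode the protein subunits of oxidative phosphorylation, together with cytochrome c. They were chosen by symbol: Nduf genes of series a, b, c, s and v (complex I), Sdha to Sdhd (complex II), Uqcr genes and Cyc1 (complex III), Cox4 to Cox8 genes (complex IV), Atp5 genes (complex V), Cycs, and the mt-Nd, mt-Co, mt-Atp and mt-Cytb genes of the mitochondrial genome. Pseudogenes were dropped by the mark -ps in the name only. Cox6c2, Ndufa11b, Ndufb4c and Ndufs6b, listed only in the NFATc3-MKI table and annotated as processed pseudogenes, were therefore kept. The liver table held 99 such genes of 17752, of which 86 were nuclear and 13 mitochondrial. The table of the NFATc3-MKI macrophages held 104 of 56748 (91 nuclear and 13 mitochondrial), and that of the ASK1-MKI macrophages held 100 of 21959 (87 nuclear and 13 mitochondrial). This made 108 different gene names over the 3 tables. Atp5if1, Atp5mj and Atp5mk of the liver table were not matched to the annotation, so a gene under another name in the macrophage tables may be counted again. In the livers the nuclear genes were 38 of complex I, 4 of complex II, 9 of complex III, 16 of complex IV, 18 of complex V and Cycs. The mitochondrial genes were 7 of complex I, 1 of complex III (mt-Cytb), 3 of complex IV (mt-Co1 to mt-Co3) and 2 of complex V (mt-Atp6 and mt-Atp8).

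Complexes I to IV of the inner mitochondrial membrane pass electrons from NADH and succinate to oxygen. All of these but complex II pump protons, and complex V uses the proton gradient to make ATP. Cytochrome c and ubiquinone carry the electrons between complexes. Complex II is encoded wholly in the nucleus, whereas the other 4 complexes also hold subunits made from mitochondrial DNA. That DNA is transcribed from both strands as long precursors, which are cut into single RNAs, and mt-Nd6 is the only one of its protein-coding genes on the light strand. Hepatocytes are rich in mitochondria, and macrophages shift between oxidative phosphorylation and glycolysis as they are activated.

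Messenger RNA was sequenced from 16 livers and 12 macrophage cultures of mice. The livers came from male mice 8 weeks old fed for 4 weeks on a diet deficient in methionine and choline, which produces steatohepatitis, so every liver group including the controls carried the diet. There were 4 livers each of Lyz2-Cre mice (the controls), mice labelled as lacking the transcription factor NFATc3 in macrophages (NFATc3-MKO), mice labelled as lacking the stress kinase ASK1, the product of Map3k5, in macrophages (ASK1-MKO), and mice labelled as lacking both (MDKO). The Lyz2 promoter drives Cre in myeloid cells, so most of the RNA of a whole liver comes from cells in which no gene was meant to be deleted. The cultures were bone marrow-derived macrophages grown for 7 days with 30% L929-conditioned medium. Of these, 3 were labelled as a macrophage knock-in of NFATc3 (NFATc3-MKI) and another 3 as one of ASK1 (ASK1-MKI), and either set had 3 Lyz2-Cre controls of its own. The labels name no separate animals or cultures behind the replicates, so p-values measure the spread between these samples, which may be technical.

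Total counts were 8912117 to 30834547 in the livers, 16051951 to 18728508 in the ASK1-MKI cultures with their controls, and 7693464 to 9398163 in the NFATc3-MKI cultures with theirs. Levels of the targeted genes did not bear out the labels. Nfatc3 stood at 28.3 ± 5.78 CPM (SD, n = 4) in the libraries labelled NFATc3-MKO and at 36.3 ± 3.94 in Lyz2-Cre livers (edgeR adjusted p = 0.12), and Map3k5 was higher in the libraries labelled ASK1-MKO (46.3 ± 6.12 against 30.9 ± 2.21 CPM, edgeR adjusted p = 0.0262). In the libraries labelled MDKO both genes stood at the level of the controls, Nfatc3 at 36.6 ± 4.6 and Map3k5 at 30.6 ± 2.15 CPM (edgeR adjusted p = 1.0 for both). In the cultures labelled as knock-ins both targeted genes were lower than in the controls: Nfatc3 at 81.1 ± 8.04 against 97.5 ± 7.33 CPM, and Map3k5 at 26.9 ± 0.349 against 30.1 ± 0.174 CPM (SD, n = 3, edgeR adjusted p = 0.0371 and 0.0266). The tables give counts of whole genes, so an altered exon or a transgene could not be examined. Most RNA of a whole liver comes from cells in which no deletion was meant, so the liver levels cannot show whether macrophages lost either gene. Every direction below is that of the libraries labelled with the group's name. The summed hepatocyte markers ran from 76910 to 139900 CPM in the livers and reached at most 0.1255 CPM in a culture. The summed macrophage markers stood at 1525 to 2131 CPM in the NFATc3-MKI set, where C1qa was at 0, and at 33930 to 38260 CPM in the ASK1-MKI set.

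The mitochondrial messages were far more abundant than the nuclear ones in liver and much closer to them in the macrophage tables. CPM is a gene's count relative to the total of its library, with totals scaled by edgeR's trimmed mean of M values. The 13 mitochondrial genes took 11.967% to 17.466% of all counts in a liver, 1.977% to 2.262% in ASK1-MKI cultures and their controls, and 1.34% to 1.728% in NFATc3-MKI cultures and theirs. The nuclear genes took, in the same order, 1.086% to 1.54%, 0.537% to 0.59% and 0.954% to 1.033%. Per liver there were 10.2 to 13.4 mitochondrial counts for each nuclear one, and the 4 groups overlapped in this ratio. In the ASK1-MKI set the ratio was 4.1, 4.21 and 4.03 in the controls and 3.64, 3.35 and 3.55 in ASK1-MKI, without overlap. In the NFATc3-MKI set it was 1.6, 1.77 and 1.65 in the controls and 1.3, 1.75 and 1.47 in NFATc3-MKI, with overlap. These ratios are descriptions and were not tested.

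Counts of several mitochondrial genes are uncertain, since the nuclear genome carries near-identical copies with which they can share reads. Matched to the GENCODE M21 transcripts of mm10, mt-Co2, mt-Atp6, mt-Co3, mt-Nd3 and mt-Nd4l had at least 99% of their length covered by a copy at an identity of at least 99%. These copies are unprocessed pseudogenes on chromosome 1, listed only in the NFATc3-MKI table. The first pair of stretches below shows the first 90 bases of mt-Co2 (chrM:7013-7102, plus strand, mm10) and the matching bases of its copy Gm28661 (chr1:24615476-24615565, minus strand), which do not differ at any of 681 aligned bases. The second pair shows a copy that can be told apart: mt-Nd2 (chrM:4685-4774, plus strand) and Gm13339 (chr2:22590201-22590290, minus strand), with 6 differences in the stretch, in capitals, and 17 in 510 aligned bases.
mt-Co2: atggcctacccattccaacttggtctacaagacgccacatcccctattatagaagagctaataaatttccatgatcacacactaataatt
Gm28661: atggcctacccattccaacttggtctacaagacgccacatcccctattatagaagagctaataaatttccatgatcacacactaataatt
mt-Nd2: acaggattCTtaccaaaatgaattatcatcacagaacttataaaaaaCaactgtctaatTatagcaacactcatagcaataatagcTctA
Gm13339: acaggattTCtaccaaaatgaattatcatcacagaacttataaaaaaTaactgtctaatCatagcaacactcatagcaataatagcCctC

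The 5 genes with a full-length copy were far lower in the macrophage tables than in liver, and so was mt-Atp8, with a copy of a small part only. mt-Co2, a core subunit of complex IV, stood at 26430 CPM per kilobase of transcript in Lyz2-Cre livers, 21.61 in the NFATc3-MKI controls and 101.3 in the ASK1-MKI controls. mt-Atp6, the proton channel subunit of complex V, stood at 21000, 55.07 and 26.05, and mt-Co3 at 17310, 19.66 and 59.6. mt-Nd3 stood at 8394, 0.9452 and 8.521, and mt-Nd4l at 9253, 1.085 and 2.995. mt-Atp8, which overlaps mt-Atp6 in the genome and is covered by a copy over 21.1% of its length, stood at 25870, 0.41 and 0.4515. mt-Nd4, covered over 63.6%, stood at 9768, 100.1 and 614.6.

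Apart from mt-Atp8 and mt-Nd6, genes without a full-length copy were lower in the macrophage tables than in liver as well, but by less. mt-Atp8 had the largest ratios of liver to macrophage controls of all 13 genes, 63100 in the NFATc3-MKI set and 57300 in the ASK1-MKI set. mt-Nd1 and mt-Cytb, with no copy found, stood at 11360 and 13040 CPM per kilobase in Lyz2-Cre livers, 178.9 and 174.5 in the NFATc3-MKI controls, and 1628 and 1727 in the ASK1-MKI controls. mt-Co1, the catalytic subunit of complex IV, covered at this identity over 31.3% of its length, had the highest mean of the mitochondrial genes in all 3 tables, at 27240, 9855 and 9369. In liver mt-Co2 (26430) and mt-Atp8 (25870) stood close to it, within the spread of the livers. mt-Nd2 stood at 4659, 109.2 and 842.6, and mt-Nd5 at 3846, 372.6 and 1164. mt-Nd6 went the other way, at 60.92 CPM per kilobase in the livers against 573.8 and 618.7 in the macrophage controls. The libraries mark the strand, but the strand setting of the counting is not given in the sources used here, so reads of mt-Nd6 and of RNA antisense to it cannot be told apart. These levels stand across tables that were counted and normalised separately, and whether the nuclear copies caused the low counts was not tested. In the NFATc3-MKI table some copies held counts of the same order as their mitochondrial genes. The median per library was 260 for Gm10925, beside 237 to 370 for mt-Atp6. It was 106 for Gm28437, beside 115 to 189 for mt-Co3, and 64 for Gm28661, beside 102 to 185 for mt-Co2. Partial copies held far less than their genes. Gm29216 had a median of 842, beside 101519 to 137172 for mt-Co1, and Gm28439 had 10, beside 880 to 1470 for mt-Nd4.

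**Figure D1:**
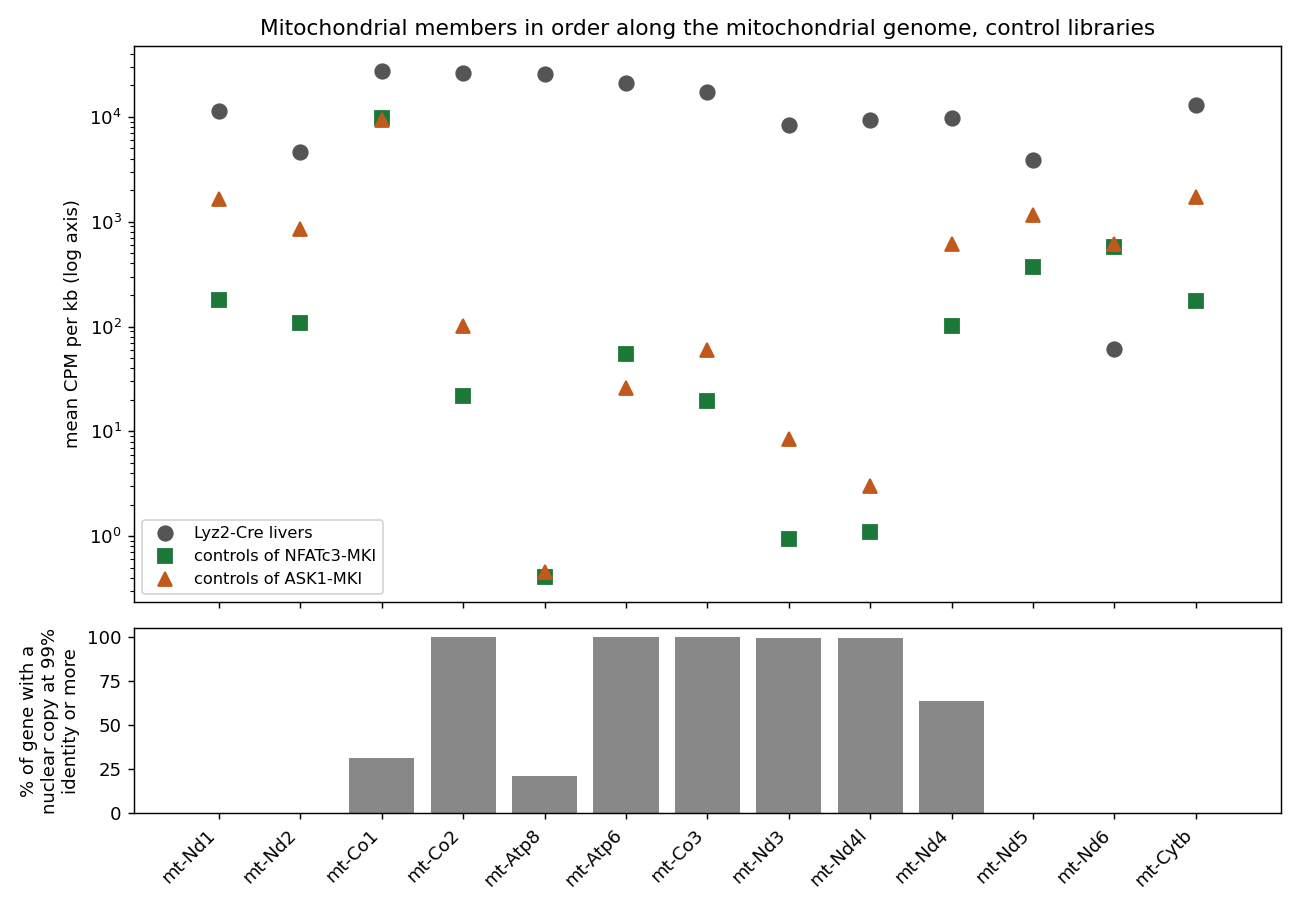
Upper panel: mean CPM per kilobase of each mitochondrial gene in Lyz2-Cre livers and in the controls of both macrophage sets, on a log axis, in order along the mitochondrial genome. Lower panel: percent of each gene covered by a nuclear copy at an identity of at least 99%. mt-Co1 has the highest mean in all 3 tables, though mt-Co2 and mt-Atp8 stand close to it in liver. mt-Nd6 is the only gene lower in liver (60.92) than in macrophages (573.8 and 618.7).

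Among nuclear genes, complex V and complex IV subunits led in every table. In Lyz2-Cre livers Atp5mc3, a c subunit of the rotor ring of ATP synthase, stood at 648.6 ± 124 CPM per kilobase (SD, n = 4) and Atp5f1b, the catalytic beta subunit, at 647.1 ± 97.8, a difference within their spread. Cox7c, Cox6b1 and Cox4i1 of complex IV followed at 477.9, 442.7 and 437.3, which also lay within their spread. The most abundant member of complex I by symbol was Ndufa4 (365.9 ± 70.8), whose product is now assigned to complex IV, and that of complex III was Uqcrh (357.1). The median over the complex was 217.4 for complex V, 180.8 for complex IV, 149.2 for complex III, 146.5 for complex II and 76.61 for complex I, while Cycs stood at 28.88. In the NFATc3-MKI controls Atp5f1b led at 643.1 ± 43.1 (SD, n = 3), and in the ASK1-MKI controls it led at 236.4 ± 5.

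Isoforms known from muscle, testis or hypoxic tissue were near 0 in most samples. Cox8b, Cox8c and Cox7b2 were at 0 in the control groups in which they were listed, and Cox4i2, Cox7a1 and Cox6b2 stood at 2.157 CPM per kilobase or lower in every control group, against at least 162.3 for Cox4i1. Ndufa4l2, a hypoxia-induced relative of Ndufa4, stood at 1.145 in Lyz2-Cre livers and at 0 to 0.131 in the macrophage controls. Cox6a2, the heart and muscle form of subunit 6a, was the exception. It stood at 0.2835 CPM per kilobase in Lyz2-Cre livers and 3.101 in the ASK1-MKI controls, but at 32.48 ± 6.91 (SD, n = 3) in the NFATc3-MKI controls, beside 435.6 ± 29.3 for the general form Cox6a1. The macrophage tables were normalised separately, and this difference was not tested.

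A filter on low counts left 83 nuclear and 13 mitochondrial genes for testing in the livers, 81 and 10 in the NFATc3-MKI set, and 79 and 12 in the ASK1-MKI set. Each comparison used edgeR's quasi-likelihood test with Benjamini-Hochberg adjustment over all genes of the table, and genes with an adjusted p under 0.05 are termed called. In bulk liver, fewer cells of a type and less RNA per cell cannot be told apart.

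Between the livers labelled NFATc3-MKO and Lyz2-Cre, mt-Nd6 was the only subunit message called. None of the 83 nuclear genes was called by edgeR or DESeq2, where edgeR called 8.45% of all 13309 genes. In edgeR 5 of the 83 had an unadjusted p under 0.05, against 26.6% of all genes. The median log2 change of the nuclear genes was 0.01 and that of all genes was 0.03. The nuclear median rested on NFATc3-MKO replicate 3, the liver with the highest summed nuclear level of the 16 (15510 CPM, against 11890, 9190 and 11380 in the other NFATc3-MKO livers), and was −0.21 without it. mt-Nd6, a membrane subunit of complex I, stood at 17.16, 19.94, 16.76 and 13.72 CPM in NFATc3-MKO and at 29.24, 24.64, 25.96 and 46.63 CPM in Lyz2-Cre livers. All NFATc3-MKO livers lay below all controls, and Lyz2-Cre replicate 4 lay well above its group. The level fell by 0.90 ± 0.27 on the log2 scale (SE, n = 4, edgeR adjusted p = 0.0486), the only mitochondrial gene of 13 called, where 4.67% of all genes were called lower. Groups did not overlap in this 1 mitochondrial gene and in 0 of 83 nuclear genes, where they did not in 12.8% of all genes. The call rested on the margin: it was lost when any of 7 of the 8 livers was left out (adjusted p at most 0.17) and under 5 of 9 other settings (at most 0.0668). In every liver comparison, reads of mt-Nd6 and of RNA antisense to it cannot be told apart.

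Complex II gave the lowest median of the nuclear groups in NFATc3-MKO livers, though no member was called. All 4 subunits had log2 changes below 0, with a median of −0.23. Sdha, the flavoprotein that oxidises succinate, stood at 432, 334.9, 287.4 and 415.2 CPM in NFATc3-MKO and at 490.7, 376.1, 469.9 and 489.7 CPM in Lyz2-Cre livers, and the groups overlapped (log2 change −0.31 ± 0.13, edgeR adjusted p = 0.141). Sdhd, a membrane anchor of complex II, had a log2 change of −0.34 ± 0.15 (edgeR adjusted p = 0.167). Atp5f1b had the smallest p of the nuclear genes, with 989.5 ± 141 against 1240 ± 187 CPM (SD, n = 4, log2 change −0.33 ± 0.14, edgeR adjusted p = 0.132). The summed neutrophil markers, of which Mpo was at 0 in every Lyz2-Cre liver, ran from 5.988 to 37.65 CPM in NFATc3-MKO against 1.777 to 8.37 CPM, with 2 of the 3 tested markers called higher. The cholangiocyte markers ran from 95.59 to 400.4 against 63.47 to 129.5 CPM, with 2 of 5 called higher, and the Kupffer cell markers from 174.4 to 227.1 against 198.6 to 400.5 CPM, with 2 of 6 called lower. The hepatocyte markers ran from 76910 to 117600 against 103900 to 139900 CPM, with 1 of 8 called lower, and the B and plasma cell markers from 16.42 to 54.45 against 6.735 to 11.74 CPM, with 2 of 4 called higher. Their part in the subunit levels was not tested.

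**Figure D2:**
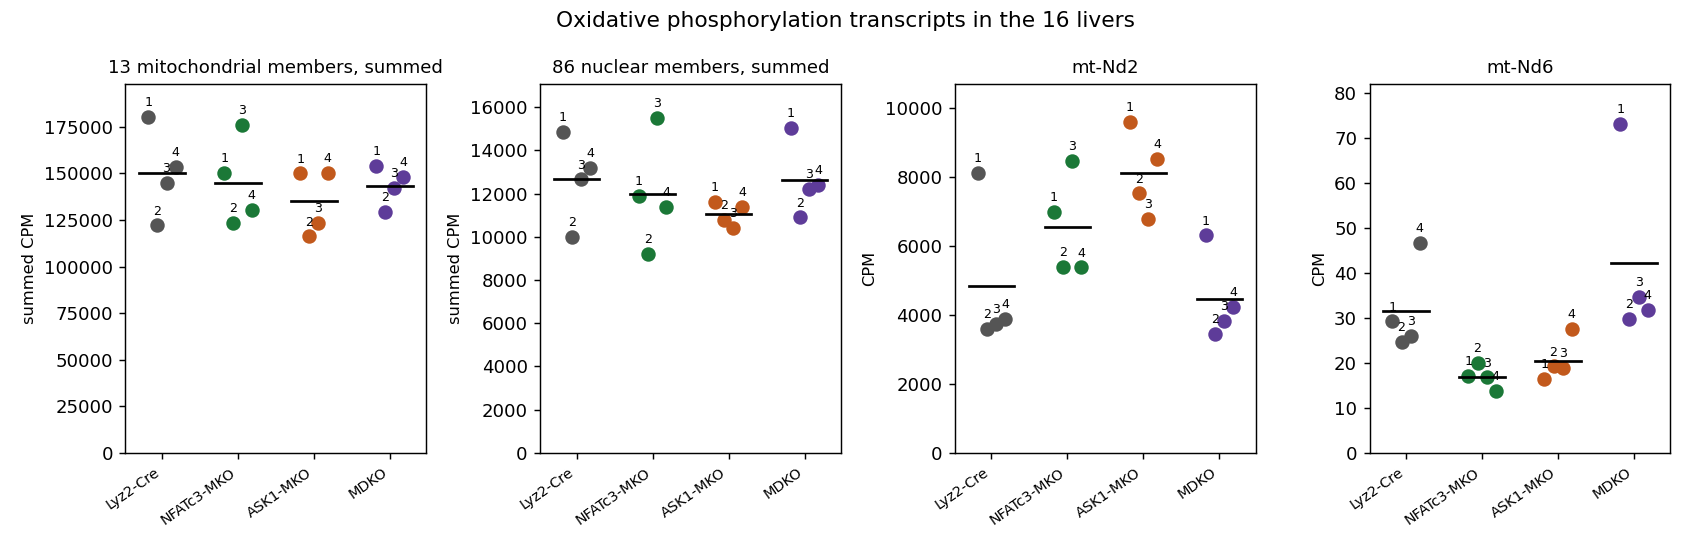
Summed CPM of the 13 mitochondrial and of the 86 nuclear genes, and CPM of mt-Nd2 and mt-Nd6, in each of the 16 livers by group, with group means as lines and replicate numbers above the points. The summed levels overlap between groups, Lyz2-Cre replicate 1 lies among the ASK1-MKO livers in mt-Nd2 at 8117 CPM, and the NFATc3-MKO livers lie below the Lyz2-Cre livers in mt-Nd6.

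In ASK1-MKO livers most nuclear subunits had slightly lower values than in the controls, none of them called. Of 83 nuclear genes, 78 had a log2 change below 0 against Lyz2-Cre, with a median of −0.21, while 53.6% of all genes were below 0 with a median of −0.03. edgeR called 0 of the 83 and DESeq2 called 1, where edgeR called 8.46% of all genes. In edgeR 5 of the 83 had an unadjusted p under 0.05, against 23.4% of all genes. The medians by complex were close: −0.22 for complex I, −0.18 for II, −0.20 for III, −0.15 for IV and −0.21 for V. Summed over all nuclear subunits the ASK1-MKO livers stood at 11630, 10780, 10420 and 11400 CPM and the Lyz2-Cre livers at 14850, 9980, 12660 and 13180 CPM. The controls spread more widely than the knockouts, and replicate 2 of the controls was the lowest liver of both groups. With a trend on GC content and transcript length removed, the median of the nuclear genes was −0.07.

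Cox6b1, a subunit at the interface of the complex IV dimer, came nearest to the threshold among them. It stood at 203.4, 200.3, 201.3 and 224.9 CPM in ASK1-MKO and at 304.2, 239.5, 281.1 and 269.6 CPM in Lyz2-Cre livers, without overlap (log2 change −0.40 ± 0.14 SE, n = 4, edgeR adjusted p = 0.0786). Atp5if1, the inhibitor that stops ATP synthase from running in reverse, stood at 15.09 ± 0.626 against 20.52 ± 2.92 CPM (SD, n = 4) and Uqcr10 of complex III at 110.9 ± 9.49 against 154.3 ± 28.1 CPM. Neither was called (edgeR adjusted p = 0.113 and 0.173), though their groups did not overlap either. In all, 6 of 83 nuclear genes had groups that did not overlap, where 18.2% of all genes did.

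Of the mitochondrial genes, mt-Nd2 had the largest log2 change in ASK1-MKO livers. This subunit of the membrane arm of complex I stood at 9619, 7533, 6791 and 8527 CPM in ASK1-MKO and at 8117, 3594, 3735 and 3896 CPM in Lyz2-Cre livers. All ASK1-MKO livers exceeded 3 of the 4 controls, and Lyz2-Cre replicate 1 lay among them. The log2 change was 0.75 ± 0.26 (edgeR adjusted p = 0.0824), and without that control it was 1.12 with an adjusted p of 0.00688. In NFATc3-MKO livers mt-Nd2 stood at 7005, 5391, 8468 and 5386 CPM, likewise above 3 of the 4 controls (log2 change 0.44 ± 0.26, edgeR adjusted p = 0.282). The other 12 mitochondrial genes had log2 changes of −0.62 to −0.02, none of them called, and mt-Nd6 was the lowest of them, at 20.53 ± 4.82 against 31.62 ± 10.2 CPM (SD, n = 4, edgeR adjusted p = 0.171). By edgeR 0 of 13 were called, where 8.46% of all genes were, and DESeq2 called 1. In edgeR 4 of the 13 had an unadjusted p under 0.05, against 23.4% of all genes. The summed erythroid markers were lower in ASK1-MKO livers, at 129.6 to 254.6 against 263.3 to 403.8 CPM, with 2 of 5 called, and their part in these values was not tested.

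No subunit was called in the double knockout. Between MDKO and Lyz2-Cre livers edgeR called 0.0% of 13309 genes, 0 of 83 nuclear genes and 0 of 13 mitochondrial ones. DESeq2 called none of these subunits either, and no subunit had an unadjusted p under 0.05 in edgeR, against 35 of all genes (0.263%). That share is far below what a threshold of 0.05 passes among unchanged genes, so the lack of calls does not show that the groups are alike. Same-numbered livers of the 2 groups had correlated deviations (0.239 to 0.528). With a replicate block in the fit no subunit was called either. Groups overlapped in every subunit, and did not in 0.458% of all genes. The median log2 change was 0.01 for nuclear and −0.06 for mitochondrial genes. mt-Nd2 stood at 6315, 3451, 3840 and 4228 CPM in MDKO, with replicate 1 high. mt-Nd6 stood at 73.08, 29.79, 34.67 and 31.76 CPM, again with replicate 1 high.

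The calls of MDKO livers against the single knockouts were in mitochondrial genes of complex I. Against NFATc3-MKO, mt-Nd6 was higher by 1.33 ± 0.27 on the log2 scale, with all MDKO livers above all NFATc3-MKO livers (edgeR adjusted p = 0.00946), and it was higher by 0.92 without MDKO replicate 1; the adjusted p was at most 0.0307 whichever liver was left out. It was the only subunit called there and the only one whose groups did not overlap (12.7% of all genes), where 7.35% of all genes were called and 4.06% were called higher. No nuclear subunit was called by edgeR or DESeq2, and 2 of 83 had an unadjusted p under 0.05 in edgeR, against 26.2% of all genes. Against ASK1-MKO, mt-Nd6 was higher by 1.05 ± 0.27 (edgeR adjusted p = 0.0257) and mt-Nd2 was lower, with a log2 change of −0.86 ± 0.26 (edgeR adjusted p = 0.0497), where 7.72% of all genes were called, 3.46% higher and 4.26% lower. The mt-Nd2 call was lost when any of 7 of the 8 livers was left out (adjusted p at most 0.139) and under 2 of 9 other settings. The mt-Nd6 change was 0.64 without MDKO replicate 1, with an adjusted p of 0.0842. This mt-Nd6 call was also lost without ASK1-MKO replicate 1, 2 or 3. It was lost too in an edgeR fit of only both groups with the replicate block (adjusted p = 0.117). Of the 83 nuclear genes 80 were above 0 in this comparison, with a median of 0.20, while 53.1% of all genes were above 0. None of the 83 was called by edgeR or DESeq2, and 4 had an unadjusted p under 0.05 in edgeR, against 22.8% of all genes. Groups did not overlap in 7 nuclear and 5 mitochondrial genes, where they did not in 18.1% of all genes. All these comparisons share groups of livers.

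The interaction addresses whether the ASK1 knockout acts differently on top of the NFATc3 knockout, as far as the labels hold. It is the difference between MDKO and NFATc3-MKO livers from which the difference between ASK1-MKO and Lyz2-Cre livers is subtracted. mt-Nd6 gave 1.95 ± 0.38 on the log2 scale (by edgeR, adjusted p = 0.00286) and mt-Nd2 gave −1.31 ± 0.36 (edgeR adjusted p = 0.0219), which reached 0.0539 at most when a liver was left out. These were 1 mitochondrial gene called higher and 1 called lower of 13, where 16.2% of all genes were called, 8.17% higher and 8.0% lower. With the GC and length trend removed, 3 mitochondrial genes were called higher and 1 lower. None of the 83 nuclear genes was called by edgeR and 1 was by DESeq2. In edgeR 8 of the 83 had an unadjusted p under 0.05, against 30.4% of all genes. Of the 83, 73 had values above 0 with a median of 0.21, while 49.6% of all genes were above 0. Leaving out a single liver moved the nuclear count to between 0 and 3.

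Among genes that serve mitochondrial transcription, Tefm moved most in the livers. Tefm encodes the elongation factor of the mitochondrial RNA polymerase. It was lower by edgeR in NFATc3-MKO (log2 change −0.76 ± 0.14, adjusted p = 0.00616) and in ASK1-MKO (−0.95 ± 0.14, adjusted p = 0.000689), with −0.06 ± 0.14 in MDKO (adjusted p = 1.0) and an interaction of 1.65 ± 0.20 (adjusted p = 0.000112). Of 23 such genes, 1 was called higher and 2 lower in NFATc3-MKO, and 1 higher and 1 lower in ASK1-MKO. Of all 13309 genes, 502 were called higher and 622 lower in NFATc3-MKO, and 593 and 533 in ASK1-MKO. Tfam, which packages mitochondrial DNA and starts its transcription, was not called in either (log2 change −0.13 and 0.08, edgeR adjusted p = 0.497 and 0.745). Whether Tefm bears on mt-Nd2 or mt-Nd6 was not tested.

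Of 13 nuclear regulators of these subunits, 3 rose in ASK1-MKO livers, where 593 of all 13309 genes were called higher and 533 lower. Ppargc1b, a coactivator of mitochondrial biogenesis, was higher by 1.49 ± 0.30 on the log2 scale by edgeR (adjusted p = 0.00555), Gabpa, an ETS factor that binds many subunit promoters, by 0.73 ± 0.15 (adjusted p = 0.00747) and Yy1 by 0.51 ± 0.10 (adjusted p = 0.0061). In NFATc3-MKO livers only Pprc1 was called, and it fell by 0.68 ± 0.19 (edgeR adjusted p = 0.0369). Of 27 other mitochondrial proteins, 5 were lower in ASK1-MKO, among them the citrate cycle enzyme Idh3a (log2 change −0.51 ± 0.11, edgeR adjusted p = 0.0082). In NFATc3-MKO 1 was lower, Ogdh, where 502 of all 13309 genes were called higher and 622 lower. The genes named from these lists were picked from those called, after their values were seen, except Tfam. Of 47 assembly factors 1 was called lower in ASK1-MKO and 1 higher in NFATc3-MKO.

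**Figure D3:**
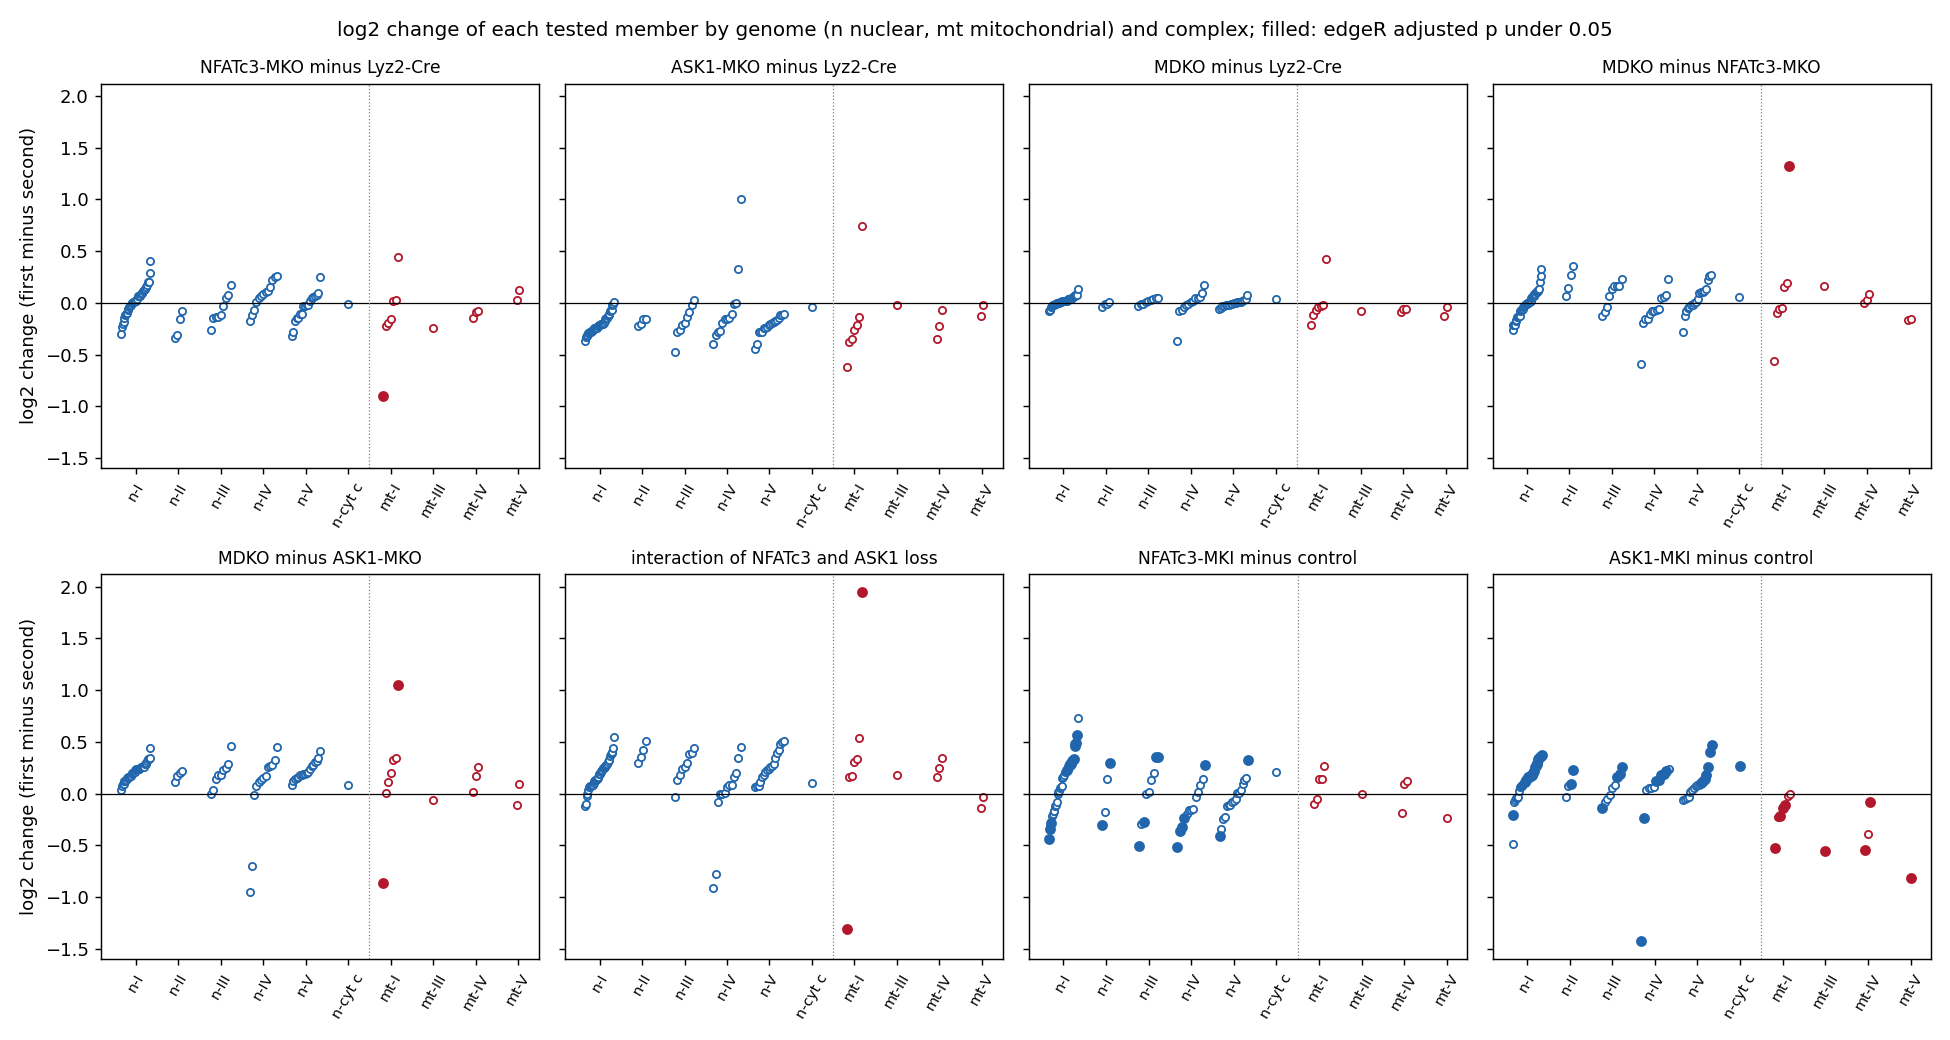
Log2 change of every tested gene by genome (n, nuclear, blue; mt, mitochondrial, red) and complex, in 1 panel for each of the 8 comparisons, with called genes filled. No nuclear gene is filled in a liver panel, whereas filled nuclear genes lie on both sides of 0 in NFATc3-MKI and mostly above 0 in ASK1-MKI, where the filled mitochondrial genes lie below 0.

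In the cultured macrophages nuclear subunits were called about as often as other genes. In NFATc3-MKI, 16 of 81 nuclear genes rose and 11 fell against their own controls, where 33.3% of all 13363 genes were called, 16.5% higher and 16.8% lower, so the share of subunits called was near that of all genes. The directions differed by complex. In complex I, 11 of 37 rose and 3 fell, whereas in complex IV 1 of 13 rose and 4 fell. Complexes II, III and V were split evenly, with 1, 2 and 1 higher and 1, 2 and 1 lower. The difference in direction between complexes was not tested. With the GC and length trend removed the count was 14 higher and 20 lower, and without NFATc3-MKI control replicate 3 it was 15 in all. Groups did not overlap in 36 of the 81, where they did not in 45.8% of all genes.

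Ndufa12, an accessory subunit on the peripheral arm of complex I, led the genes that rose. It stood at 42.75, 41.62 and 34.85 CPM in the controls and at 59.03, 58.61 and 58.94 CPM in NFATc3-MKI, without overlap (log2 change 0.57 ± 0.10 SE, n = 3, edgeR adjusted p = 0.000164). Ndufs4, needed for a late step of complex I assembly, stood at 54.74, 45.11 and 45.09 CPM in the controls and at 63.68, 75.31 and 64.38 CPM in NFATc3-MKI (log2 change 0.49 ± 0.11, edgeR adjusted p = 0.000907). Uqcrc1, a core protein of complex III, rose from 167.5 ± 2.96 to 214.0 ± 24.2 CPM (SD, n = 3, edgeR adjusted p = 0.0037). In complex V the only gene that rose was Atp5pb, a part of the stator stalk, from 266.3 ± 7.53 to 333.1 ± 11.4 CPM (edgeR adjusted p = 0.00344). The other genes named by smallest p, Ndufb9, Uqcrq, Ndufa5 and Sdhb, rose by 0.29 to 0.48 on the log2 scale.

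Uqcrh, the hinge protein between cytochrome c1 and cytochrome c in complex III, had the smallest p of the genes that fell. It stood at 197.3, 168.9 and 189.1 CPM in the controls and at 132.8, 141.9 and 115.5 CPM in NFATc3-MKI, without overlap (log2 change −0.51 ± 0.09 SE, n = 3, edgeR adjusted p = 0.000174). Atp5mc2, 1 of the 3 genes for subunit c of ATP synthase, stood at 152, 133.4 and 131.3 CPM in the controls and at 109.8, 104 and 100.6 CPM in NFATc3-MKI (log2 change −0.41 ± 0.09, edgeR adjusted p = 0.00111), while Atp5mc3 was not called (−0.12 ± 0.09, adjusted p = 0.298). Ndufb3 fell by 0.44 ± 0.10 and Cox7b by 0.36 ± 0.09 on the log2 scale (by edgeR, adjusted p = 0.00193 and 0.00451). Within complex II the iron-sulfur subunit Sdhb rose, from 95.51 ± 1.06 to 117.1 ± 4.79 CPM, and the anchor Sdhd fell, from 296.6 ± 9.56 to 239.9 ± 28.5 CPM (SD, n = 3, edgeR adjusted p = 0.0105 and 0.0108). The muscle isoform Cox6a2 fell from 22.09 ± 4.7 to 15.41 ± 3.31 CPM, with groups that overlapped (edgeR adjusted p = 0.0203).

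The mitochondrial genes of NFATc3-MKI macrophages were not called. By edgeR and by DESeq2 0 of 10 tested were called, where edgeR called 33.3% of all genes. None of the 10 had an unadjusted p under 0.05 in edgeR, against 42.9% of all genes. mt-Co1 stood at 15310, 15310 and 15060 CPM in the controls and at 12110, 14780 and 13110 CPM in NFATc3-MKI, without overlap but with a wide spread in the knock-in (log2 change −0.19 ± 0.11, edgeR adjusted p = 0.165). NFATc3-MKI replicate 2 held the highest values of its group in each of the 10 genes. mt-Nd6 stood at 404.7 CPM there against 266.1 and 316.7 in the other NFATc3-MKI cultures and 295.3 to 299.7 in the controls. Markers of lipid-associated macrophages were higher in NFATc3-MKI, at a summed 18160 to 22760 CPM against 4983 to 5618 CPM. Most of that sum was Spp1, also on the cholangiocyte list (16960 to 21530 against 4001 to 4555 CPM), and the median log2 change of the 5 markers was 0.38, with 3 called. Krt19, Sox9 and Epcam of the cholangiocyte list were at 0, and the general macrophage markers stood at 1943 to 2131 against 1525 to 1631 CPM. Their part in the subunit changes was not tested.

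In ASK1-MKI macrophages more nuclear subunits rose than fell, while the called mitochondrial messages fell. Of 79 nuclear genes 37 rose and 4 fell, where 49.1% of all 11380 genes were called, 24.6% higher and 24.5% lower. The share called among nuclear subunits was near that of all genes, and the share of them called higher was above it. Groups did not overlap in 39 of the 79, where they did not in 54.5% of all genes. Replicates of this set were very close to each other, so small changes were called. The chi-square per degree of freedom between 2 replicates, near 1 where they differ by counting error alone, was 1.59 to 1.99 here. Pairs of livers of 1 group gave 11.1 to 137, and pairs of the other macrophage cultures 2.82 to 8.94. The p-values of ASK1-MKI therefore rest on a spread little above counting error. Whether its replicates are separate cultures was not tested. By complex, 19 of 36 rose and 1 fell in complex I, 2 of 4 rose in complex II, 3 of 9 rose and 1 fell in complex III, 5 of 12 rose and 2 fell in complex IV, and 7 of 17 rose in complex V. The median log2 change of nuclear genes was 0.10 and that of all genes 0.00. With the GC and length trend removed these were 0.15 and 0.07.

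The largest rise among nuclear subunits was in Atp5mc1, another of the genes for subunit c. It stood at 34.99, 34.12 and 33.51 CPM in the controls and at 47.52, 49.9 and 44.99 CPM in ASK1-MKI, without overlap (log2 change 0.47 ± 0.05 SE, n = 3, edgeR adjusted p = 1.55e-13). Cycs stood at 109.7, 109.2 and 112.1 CPM in the controls and at 133.6, 133.5 and 132.3 CPM in ASK1-MKI, again without overlap (0.27 ± 0.03, edgeR adjusted p = 1.89e-12). Cytochrome c carries electrons to complex IV and, once released to the cytosol, starts the apoptosome. Ndufs3, Ndufa4 and Ndufv2 rose by 0.38, 0.35 and 0.34 on the log2 scale (by edgeR, adjusted p = 3.26e-09, 2.55e-11 and 2.12e-10), and Atp5mf, Sdhb and Atp5f1b by 0.26, 0.23 and 0.18.

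The nuclear genes that fell in ASK1-MKI were Cox7a2l, Cox6a2, Ndufv3 and Uqcrfs1. Cox7a2l, which helps join complexes III and IV into supercomplexes, stood at 176.8, 170.5 and 179.7 CPM in the controls and at 144.6, 152.2 and 150.3 CPM in ASK1-MKI (log2 change −0.24 ± 0.03 SE, n = 3, edgeR adjusted p = 1.13e-11). Cox6a2 was low throughout, at 1.856, 2.133 and 2.336 CPM in the controls and 0.7533, 0.4052 and 1.192 CPM in ASK1-MKI (−1.43 ± 0.29, edgeR adjusted p = 1.54e-05). Ndufv3 and Uqcrfs1, the Rieske protein of complex III, fell by 0.20 ± 0.06 and 0.14 ± 0.04 on the log2 scale (by edgeR, adjusted p = 0.00303 and 0.00417). All 4 genes had groups that did not overlap.

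Of 12 mitochondrial genes tested in ASK1-MKI, 8 fell and none rose, where 24.5% of all genes were called lower and 24.6% higher. Groups did not overlap in 7 of the 12, where they did not in 54.5% of all genes. mt-Cytb, the mitochondrial subunit of complex III, stood at 2005, 1943 and 1980 CPM in the controls and at 1320, 1309 and 1391 CPM in ASK1-MKI, far apart beside the spread of either group (log2 change −0.56 ± 0.02 SE, n = 3, edgeR adjusted p = 3.6e-53). mt-Nd1 stood at 1569, 1562 and 1542 CPM and at 1354, 1291 and 1370 CPM (−0.22 ± 0.02, edgeR adjusted p = 1.21e-19). No nuclear copy of either gene was found among the annotated transcripts. mt-Co1, the most abundant, fell by only 0.08 ± 0.02 on the log2 scale (by edgeR, adjusted p = 8e-06), and mt-Nd4 and mt-Nd2 by 0.14 and 0.11 (edgeR adjusted p = 9.94e-09 and 1.76e-06). With the trend on GC content and length removed, mt-Co1 was not called (log2 change −0.016, edgeR adjusted p = 0.427). The log2 changes of mt-Nd4 and mt-Nd2 were then above 0, at 0.018 and 0.047.

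The larger changes of mt-Atp6, mt-Co2 and mt-Nd3 are of genes with full-length nuclear copies and are uncertain. mt-Atp6 stood at 16.09, 19.19 and 17.95 CPM in the controls and at 12.05, 8.393 and 9.95 CPM in ASK1-MKI (log2 change −0.81 ± 0.10, edgeR adjusted p = 8.76e-13). mt-Co2 fell by 0.55 ± 0.06 (edgeR adjusted p = 1.05e-08). mt-Nd3 fell by 0.53 ± 0.22 on 1.729 to 3.769 CPM, with groups that overlapped (edgeR adjusted p = 0.036). The mt-Nd3 call was lost with DESeq2 and with the GC and length trend removed. It was also lost without ASK1-MKI replicate 1 or 3, or without control replicate 1 or 3. mt-Nd5 and mt-Nd6 gave −0.02 and 0.00 on the log2 scale (by edgeR, adjusted p = 0.327 and 0.978), and mt-Co3 and mt-Nd4l were not called either.

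The direction of the mitochondrial set in ASK1-MKI depended on the correction for GC content and transcript length. With that trend removed, 3 of the 12 genes were called higher and 4 lower, and the median moved from −0.22 to −0.06. The median of all genes moved to 0.07, and the share of all genes called under that setting was not counted. mt-Cytb kept its fall under that correction, at −0.48 on the log2 scale. Markers of other states moved along with these genes: the summed Kupffer cell markers, led by Marco and with Clec4f at 0, were 287.9 to 307.1 CPM in ASK1-MKI against 879.4 to 903.2 CPM, and the neutrophil markers 28.44 to 29.26 against 92.91 to 97.22 CPM, with 3 of 3 and 4 of 4 tested markers called lower. The macrophage markers ran from 36280 to 38260 against 33930 to 36260 CPM. Their part in the subunit changes was not tested.

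**Figure D4:**
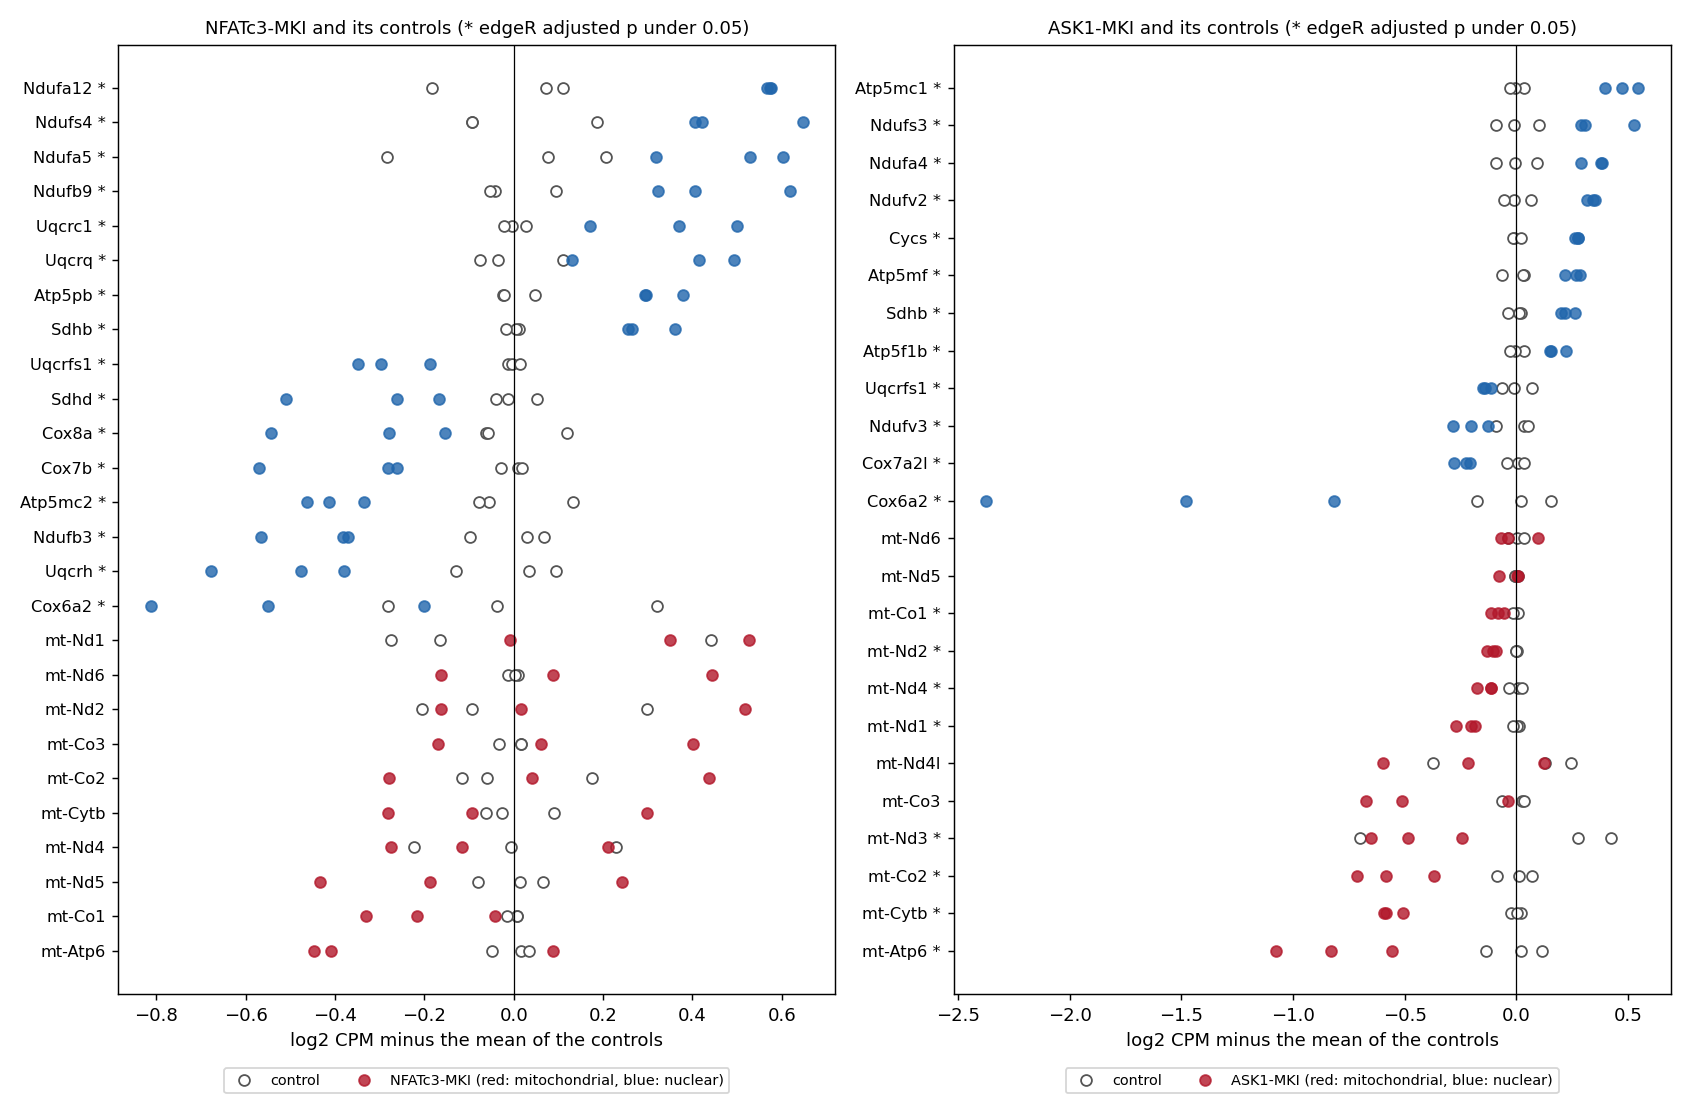
Log2 CPM of each culture minus the mean of its controls, for the named nuclear genes (blue) and the tested mitochondrial genes (red) in NFATc3-MKI (left) and ASK1-MKI (right), with controls as open circles and a star for genes called. The 3 NFATc3-MKI cultures spread on both sides of their controls in most mitochondrial genes, while the ASK1-MKI cultures lie apart from theirs in mt-Cytb, at 1309 to 1391 against 1943 to 2005 CPM.

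The knock-in sets have separate controls and can be set beside each other. All 79 nuclear genes tested in ASK1-MKI were tested in NFATc3-MKI too, and 16 were called in both, which is 59.3% of the NFATc3-MKI calls and 39.0% of the ASK1-MKI calls. Of these, 9 rose in both: Atp5pb, Ndufa5, Ndufa8, Ndufa9, Ndufb7, Ndufs4, Ndufs8, Sdhb and Uqcrc1. Cox6a2, Cox7a2l and Uqcrfs1 fell in both. Cox7b, Cox8a, Ndufb3 and Sdhd fell in NFATc3-MKI and rose in ASK1-MKI, and none went the opposite way. Some of these calls were marginal. Cox7a2l in NFATc3-MKI was lost without a filter (edgeR adjusted p = 0.0572), and Sdhd in ASK1-MKI with DESeq2 (adjusted p = 0.0848). Cox6a2 in NFATc3-MKI was lost without control replicate 1 or without NFATc3-MKI replicate 1 or 2. Several others were lost with a single culture left out. Of the 79 genes 27 were called in NFATc3-MKI and 41 in ASK1-MKI, where 33.3% and 49.1% of all genes were called. Shared calls therefore arise even where the sets are unrelated. The share of all genes called in both was not computed, and whether 16 shared calls exceed those of other genes was not tested. No mitochondrial gene was called in both.

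Lists of related genes are given as counts, beside the 16.5% higher and 16.8% lower of all genes in NFATc3-MKI and the 24.6% and 24.5% in ASK1-MKI. Of 77 mitochondrial ribosomal proteins tested, which translate the mitochondrial messages, 25 rose and 6 fell in NFATc3-MKI and 39 rose and 1 fell in ASK1-MKI. Of the assembly factors, 7 of 43 rose and 1 fell in NFATc3-MKI and 13 of 40 rose and 2 fell in ASK1-MKI. Of the cytosolic ribosomal proteins, whose transcripts are also short and abundant, 2 of 85 rose and 20 fell in NFATc3-MKI and 3 of 80 rose and 51 fell in ASK1-MKI. Of 10 regulators tested, 2 rose (Perm1 and Esrra) and 3 fell in NFATc3-MKI, and 2 rose (Perm1 and Pprc1) and 4 fell in ASK1-MKI. Gabpa and Yy1 fell in both, by 0.43 and 0.47 on the log2 scale in NFATc3-MKI and by 0.28 and 0.20 in ASK1-MKI (edgeR adjusted p at most 0.000628), and Hif1a, which favours glycolysis over respiration, fell by 0.63 ± 0.03 in ASK1-MKI (edgeR adjusted p = 1.83e-41).

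Promoters of the nuclear subunits were searched for motifs of these regulators and set beside all promoters, as a description without a test. Windows of 250 bases before to 50 bases after the start were taken from RefSeq (GRCm38.p6), which matched 71 of 95 nuclear gene names and 70 different genes. On either strand, the NRF1 motif GCGCATGCG was in 9 of 70 (12.9%) against 1.95% of 27025 genes, the YY1 motif AAGATGGCG in 7 (10.0%) against 1.64%, the ERR motif TCAAGGTCA in 2 (2.9%) against 0.466%, and the ETS motif CCGGAAGT in 5 (7.1%) against 4.31%. Any of them was in 22 (31.4%) against 7.93%. In ASK1-MKI, any motif was in 10 of 35 promoters of genes that rose and in 12 of 27 of genes that were not called. In NFATc3-MKI it was in 7 of 14 of the genes that rose, 4 of 9 of those that fell and 11 of 42 of those not called. A match describes these letters and shows no binding.
One promoter per motif is shown for subunits called in the cultures, with the motif in capitals, all on the minus strand of GRCm38.p6: Cycs (chr6:50566520-50566819, NRF1), Sdhd (chr9:50603800-50604099, ERR), Ndufs3 (chr2:90904672-90904971, ETS) and Atp5mf (chr5:145191492-145191791, YY1).
Cycs: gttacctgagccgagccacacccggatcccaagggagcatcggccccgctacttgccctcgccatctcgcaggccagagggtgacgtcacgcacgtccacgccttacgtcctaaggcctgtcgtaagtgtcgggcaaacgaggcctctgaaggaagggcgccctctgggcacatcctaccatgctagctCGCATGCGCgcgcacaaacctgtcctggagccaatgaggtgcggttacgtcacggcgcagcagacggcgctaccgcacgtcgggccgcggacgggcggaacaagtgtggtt
Sdhd: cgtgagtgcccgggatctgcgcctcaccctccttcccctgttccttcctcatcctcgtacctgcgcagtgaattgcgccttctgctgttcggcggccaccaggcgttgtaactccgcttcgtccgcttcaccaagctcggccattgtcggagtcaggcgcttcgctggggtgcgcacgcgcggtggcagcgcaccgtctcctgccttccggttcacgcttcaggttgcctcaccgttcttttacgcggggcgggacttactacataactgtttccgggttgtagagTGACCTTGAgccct
Ndufs3: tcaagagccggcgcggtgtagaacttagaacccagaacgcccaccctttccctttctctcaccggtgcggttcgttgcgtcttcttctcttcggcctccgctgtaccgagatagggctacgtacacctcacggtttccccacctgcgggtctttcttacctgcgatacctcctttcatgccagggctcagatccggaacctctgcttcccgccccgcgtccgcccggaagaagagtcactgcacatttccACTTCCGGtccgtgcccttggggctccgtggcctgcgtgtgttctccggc
Atp5mf: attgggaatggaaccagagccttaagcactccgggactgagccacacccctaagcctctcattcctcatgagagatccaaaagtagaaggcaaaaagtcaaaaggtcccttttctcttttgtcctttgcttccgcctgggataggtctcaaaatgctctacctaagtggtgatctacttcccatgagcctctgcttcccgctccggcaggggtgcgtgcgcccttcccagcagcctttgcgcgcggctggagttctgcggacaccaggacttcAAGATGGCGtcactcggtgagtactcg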

How the data were processed

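Gene tables of 28 libraries were deposited: 16 livers and 12 macrophage cultures. The authors' liver values are expected counts (85.42% whole), which were rounded to whole numbers, and the macrophage tables hold counts deposited per gene. Alignment with HISAT2 to mm10 is recorded in the submitters' processing notes. How genes were counted (program, annotation, strand) is not given in the sources used here. Libraries were directional (dUTP) from bead-purified mRNA, per the labels' protocols.

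Genes were matched to GENCODE M21 for length and GC content. Each table was tested on its own with edgeR 4.0.16 (R 4.3.3): filterByExpr, TMM scaling, the robust quasi-likelihood test, and Benjamini-Hochberg adjustment over all genes. All 4 liver groups shared 1 fit. The scripts were tested on simulated data. Common biological coefficients of variation were 0.208, 0.089 and 0.021 for the livers, the NFATc3-MKI set and the ASK1-MKI set. MDKO replicate 3 was the shallowest liver, and depth sets only counting error.

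The members, lists and tests were chosen with earlier results of these data known. Named were every mitochondrial gene, up to 8 called nuclear genes in each direction by smallest p, the most abundant nuclear gene of each complex and the tissue isoforms. Genes named outside this rule were chosen after their values were seen, among them Sdha, Sdhd, Atp5f1b, Cox6b1, Atp5if1 and Uqcr10 in liver. Atp5 names differ between tables and were paired through RefSeq synonyms, except Atp5if1, Atp5mj and Atp5mk, which found no match. Ndufa4 was kept in complex I by its symbol.

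Nuclear copies were found with BLAST+ 2.17.0 among all transcripts outside the mitochondrial genome. Alternatives were DESeq2 1.42.0, other filters, library sizes without mitochondrial genes, removal of a GC and length trend, a replicate block, fits of only the groups compared, and leaving out each library. Replicate numbers paired MDKO with Lyz2-Cre livers by the rule that every same-numbered pair's deviations correlate above 0.1 (0.528, 0.508, 0.259 and 0.239), and no other groups.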

Additional observations from a re-analysis of the deposited data

Results flagged for a closer look

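Within groups of 4 livers, a library was set apart where its gap to the nearest other, as a share of the group's range, exceeded Dixon's critical value for 4 samples. Of 164 groups tested 8 did so, and chance alone gives about 1 in 20. Lyz2-Cre replicate 1 stood apart in mt-Nd2 (8117 CPM) and in the summed mitochondrial genes of complex V (24920 CPM). MDKO replicate 1 stood apart in mt-Nd6 (73.08 CPM), Cox6a1 (196.5 CPM) and Cox7a2l (129.1 CPM), and MDKO replicate 2 in mt-Co1 (35880 CPM). ASK1-MKO replicate 4 stood apart in Cox6b1 (224.9 CPM) and ASK1-MKO replicate 3 in Ndufa4 (212.0 CPM). The difference between livers labelled MDKO and NFATc3-MKO was unlike that between livers labelled ASK1-MKO and Lyz2-Cre in mt-Nd6 (interaction 1.95 on the log2 scale) and in mt-Nd2 (interaction −1.305), by edgeR's test of the interaction.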

How the results depend on the processing

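No nuclear gene was called in NFATc3-MKO, and no subunit of either genome in MDKO, against Lyz2-Cre under any of 9 other settings or with any of 8 livers left out. In NFATc3-MKO 1 mitochondrial gene was called, and 0 without a filter, with a mean of at least 1 CPM, with the replicate block, with only both groups, or with both; removing the GC and length trend gave 2 and leaving out a liver 0 to 1. In ASK1-MKO 0 nuclear genes became 1 with DESeq2 or the replicate block, 3 with only both groups and 2 with the block added; 0 mitochondrial genes became 1 with DESeq2 or the block, 2 with only both groups and the block, and 0 to 1 with a liver left out. For MDKO against NFATc3-MKO, 0 nuclear genes became 2 without the trend, and 1 mitochondrial gene became 0 with only both groups and the block. For MDKO against ASK1-MKO, 0 nuclear genes became 1 with only both groups, with or without the block, and 2 mitochondrial genes became 1 without a filter, with mitochondrial genes out of the library sizes, or with only both groups and the block, and 0 to 1 with a liver left out. For the interaction, 0 nuclear genes became 1 with DESeq2, 2 without the trend, 3 with the replicate block and 0 to 3 with a liver left out, and 2 mitochondrial genes became 4 without the trend and 1 to 3. In NFATc3-MKI 27 nuclear genes were called, 24 to 34 under other settings (26 with the replicate block) and 15 to 35 with a culture left out; 0 mitochondrial genes became 2 without the trend, 1 with the block and 0 to 3. In ASK1-MKI 41 nuclear genes became 33 to 51 (42 with the block) and 34 to 45, and 8 mitochondrial genes 7 to 9 (9 with the block) and 7 to 8. Removing the trend in ASK1-MKI turned mt-Nd2 to 0.047, mt-Nd4 to 0.018, mt-Nd5 to 0.109 and mt-Nd6 to 0.268 on the log2 scale. The cause of these shifts was not tested.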
